A study of Gallus gallus with 9 samples.

Results

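The comparison described here set retinal pigment epithelium (RPE) that had lost its neural retina and received FGF2 against intact RPE of the chick embryo. Its members were the 3 rRPE libraries and the 3 RPE libraries of a series of 9, and all genes of the table whose normalized counts added up to 20 or more across the 9 libraries. That rule kept 16535 of 16635 genes, the lowest kept sum being 20.03 and the highest sum left out 19.98. RPE was intact tissue at embryonic day 4 (E4). The rRPE was E4 RPE collected 6 h after surgical removal of the retina (retinectomy), with a bead soaked in FGF2 placed in the eye cup, and only RPE close to the bead was captured. Another group, t-rRPE, had the retinectomy without FGF2, and its 3 libraries entered the estimate of the spread and are given beside the results. Each library came from RPE of 1 White Leghorn embryo, cut from frozen sections by laser capture microdissection, and neither the labels nor the methods name a mutation or transgene. No group received FGF2 without retinectomy, so for the effects of injury and FGF2 in rRPE only the values of t-rRPE can be set beside it. The methods describe no bead without FGF2 for t-rRPE, and capture close to a bead applied to rRPE only. In addition, t-rRPE 1 differed from rRPE in its reads of the W chromosome, as given below. The effect of FGF2 alone therefore cannot be told apart from these differences.

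The RPE is a pigmented monolayer behind the neural retina that feeds and protects the photoreceptors. In the early chick embryo it can still be turned into neural retina when the retina is removed and FGF2 is supplied. FGF2 binds FGF receptors, which activate RAS, MEK and ERK kinases. This cascade switches on ETS and AP-1 transcription factors and also its own inhibitors, the Sprouty proteins and the dual specificity phosphatases. The transcription factors MITF and OTX2 hold RPE identity and drive the pigment genes.

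Reads assigned to genes came to 36418116 to 45563924 in the RPE libraries and 32346059 to 33805965 in the rRPE libraries, as recovered from the normalized counts. The amplified reads carry no molecular identifiers, so this depth does not give the sampling error of the captured RNA. The 6 embryos also differed in a chromosome. Hens are ZW and cocks ZZ, and *HINTW*, a multicopy gene of the W chromosome, had normalized counts of 128872, 102583 and 106839 in RPE and 0 in every rRPE library (at least 35990.0-fold lower, adjusted p = 0.0461). In t-rRPE it was at 147356, 0 and 0, so W reads were present in all RPE libraries and in t-rRPE 1 and were missing from the other 5 libraries. Of the 4 W genes tested, *HINTW* and *HNRNPKL* were called by limma over the 9 libraries, and *SPIN1W* and *SMAD7B* were not. All 4 were called with the 6 RPE and rRPE libraries alone or without t-rRPE 1, none in edgeR, and *HNRNPKL* and *SMAD7B* in DESeq2, which gave *HINTW* and *SPIN1W* no adjusted p. *SPIN1W* had 1383, 1429 and 1220.3 in RPE and 7.11, 7.31 and 15.4 in rRPE (log2FC -7.02 ± 1.75, adjusted p = 0.0917). *HNRNPKL* was at 4008, 5466 and 6174 in RPE and 225, 207 and 144 in rRPE (log2FC -4.76 ± 0.99, adjusted p = 0.0481), and its remaining reads are uncertain, since a near-identical relative could share them. *SMAD7B* had 87.4, 206 and 283 in RPE and 0 in every rRPE library (at least 61.3-fold lower, adjusted p = 0.134). The summed level of the 4 genes was 109684 to 134351 in RPE and 159 to 232 in rRPE (two-sided exact permutation p = 0.1, the smallest that 3 against 3 allows).

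The Z-linked genes moved with the W reads. Their median log2 fold change was 0.66 over 516 genes (quartiles 0.18 and 1.09), 80.0% of them being higher in rRPE, against a median of 0.00 and 49.0% for 10554 autosomal genes. Library by library, the median of the Z genes lay -0.05 to 0.06 from that of the autosomal genes in RPE and at -0.01 in t-rRPE 1. It lay at 0.66 to 0.69 in rRPE and at 0.58 and 0.67 in t-rRPE 2 and 3. W status and group therefore cannot be told apart in rRPE against RPE. Of the DEGs described below, 13 were on the Z chromosome and all 13 were up-regulated, 7 of them by at least 1 more than the Z median on the log2 scale. Another 114 DEGs were on autosomes, and 129 of all 170 DEGs could be placed on a chromosome. Among the unplaced DEGs, 3 that were down-regulated followed the W reads at a cut-off of 10-fold. They were more than 10-fold lower in every library without *HINTW* reads than in every library with them. Smaller differences were not searched for. The unplaced down-regulated DEG *ENSGALG00000040263* had 7966 to 10462 in the libraries with *HINTW* reads and 1984 to 2383.5 in those without.

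**Figure D1:**
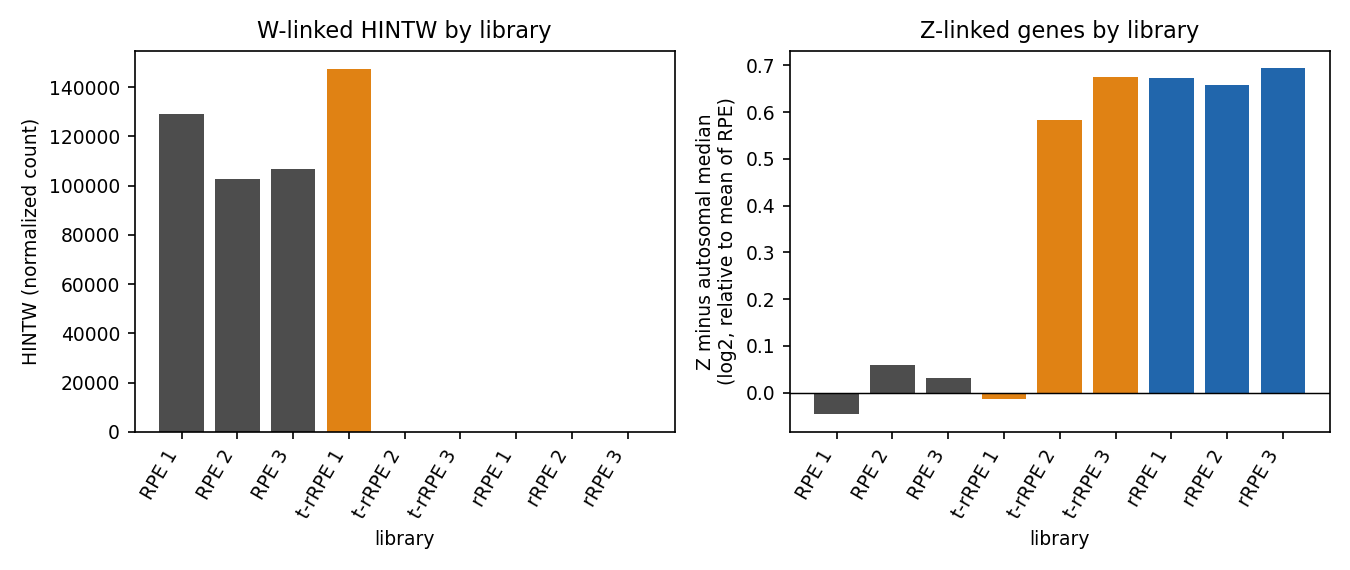
Normalized count of *HINTW* (left) and the median of Z-linked genes relative to autosomal genes (right, log2, each relative to the mean of the RPE libraries, genes with a mean normalized count of at least 100) in each library. The 3 RPE libraries and t-rRPE 1 carry *HINTW* reads and sit between -0.05 and 0.06 on the right, and the other 5 libraries carry none and sit between 0.58 and 0.69.

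Of the 16535 genes, 112 were up-regulated (0.677%) and 58 down-regulated (0.351%) in rRPE, 170 in all (1.03%). DEGs are genes with a Benjamini-Hochberg adjusted p of at most 0.05 in limma and a log2 fold change (log2FC) of 1 or more in size, on the log2(normalized count + 1) scale. A value after ± is the SE of a log2FC between groups of 3 libraries. It comes from the limma fit, whose spread per gene was pooled over all 9 libraries, t-rRPE included. The median log2 fold change was 2.60 for the up-regulated and -1.86 for the down-regulated DEGs and 0.00 over all genes, of which 49.2% were higher in rRPE. All libraries of rRPE lay above those of RPE for 9.71% of genes and below them for 8.94%, and no DEG overlapped between the groups. In 28 up-regulated DEGs every RPE library held at most 3 reads, and in 8 down-regulated DEGs every rRPE library did. For such genes a lower bound is given in place of a fitted fold, the mean of the other group over what 3 reads are worth, which allows for counting error only. Values of a gene are normalized counts, given in the order of libraries 1, 2 and 3 of each group. At an unadjusted p of at most 0.05, 1153 genes were higher and 831 lower.

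The calls depended on single libraries. No DEG overlapped between the groups, so leaving out 1 library could not change a sign. With any 1 library left out, 107 of the up- and 54 of the down-regulated DEGs kept a log2FC of 1 or more in size. Without rRPE 1 no gene passed in limma, the lowest adjusted p being 0.0519, although 167 of the 170 kept the fold with an unadjusted p of at most 0.05, so each call below is lost in that fit, and without RPE 2 or rRPE 2 only 15 genes passed. Among the DEGs picked by the naming rules, the calls of *FN1*, *LFNG*, *BAMBI*, *SCG2* and *COL6A2* were lost in every fit with 1 library left out. Those of *TAGLN*, *ETS1*, *PTN*, *FBN1*, *SOCS3*, *MMP9*, *MAFA*, *FAM124A*, *HINTW* and *HNRNPKL* were kept in only 1 such fit. edgeR on the recovered reads called 101 genes, 100 of them among the 170, and DESeq2 called 575, 162 of them shared. limma with the 6 RPE and rRPE libraries alone called 231 genes, 105 of them among the 170. With the *HINTW* level as a covariate, which rests on the difference between t-rRPE 1 and the other t-rRPE libraries alone, 3 genes passed and none of the 170. In t-rRPE 1, the injured library with W reads, 95 of the 112 up-regulated DEGs lay above all RPE libraries and 47 of the 58 down-regulated DEGs below them, against 29.7% and 24.9% of all genes. In t-rRPE 2 these numbers were 84 and 54, and in t-rRPE 3 they were 95 and 53. The DEGs were picked by their values in these same RPE libraries, which can raise such numbers above those of all genes. The part of W status in them was not tested.

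Only 9 genes (0.0544%) differed between rRPE and t-rRPE. They included *ID2* and *OTX2*, lower in rRPE, and *FSCN1*, *TUBB6*, *SLC9A3R1*, *TSC22D1*, *TGFB3* and *RGS10*, higher in rRPE. The bead, the captured region and, for t-rRPE 1, the W reads also differed between these groups, and their part was not tested. With any 1 library left out no gene passed this comparison, or 1 without RPE 1. A fit of the 6 rRPE and t-rRPE libraries alone gave 0 calls, while edgeR called 6 and DESeq2 230. For all other genes named here the difference between rRPE and t-rRPE did not pass the test, which does not show that the groups were alike.

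**Figure D2:**
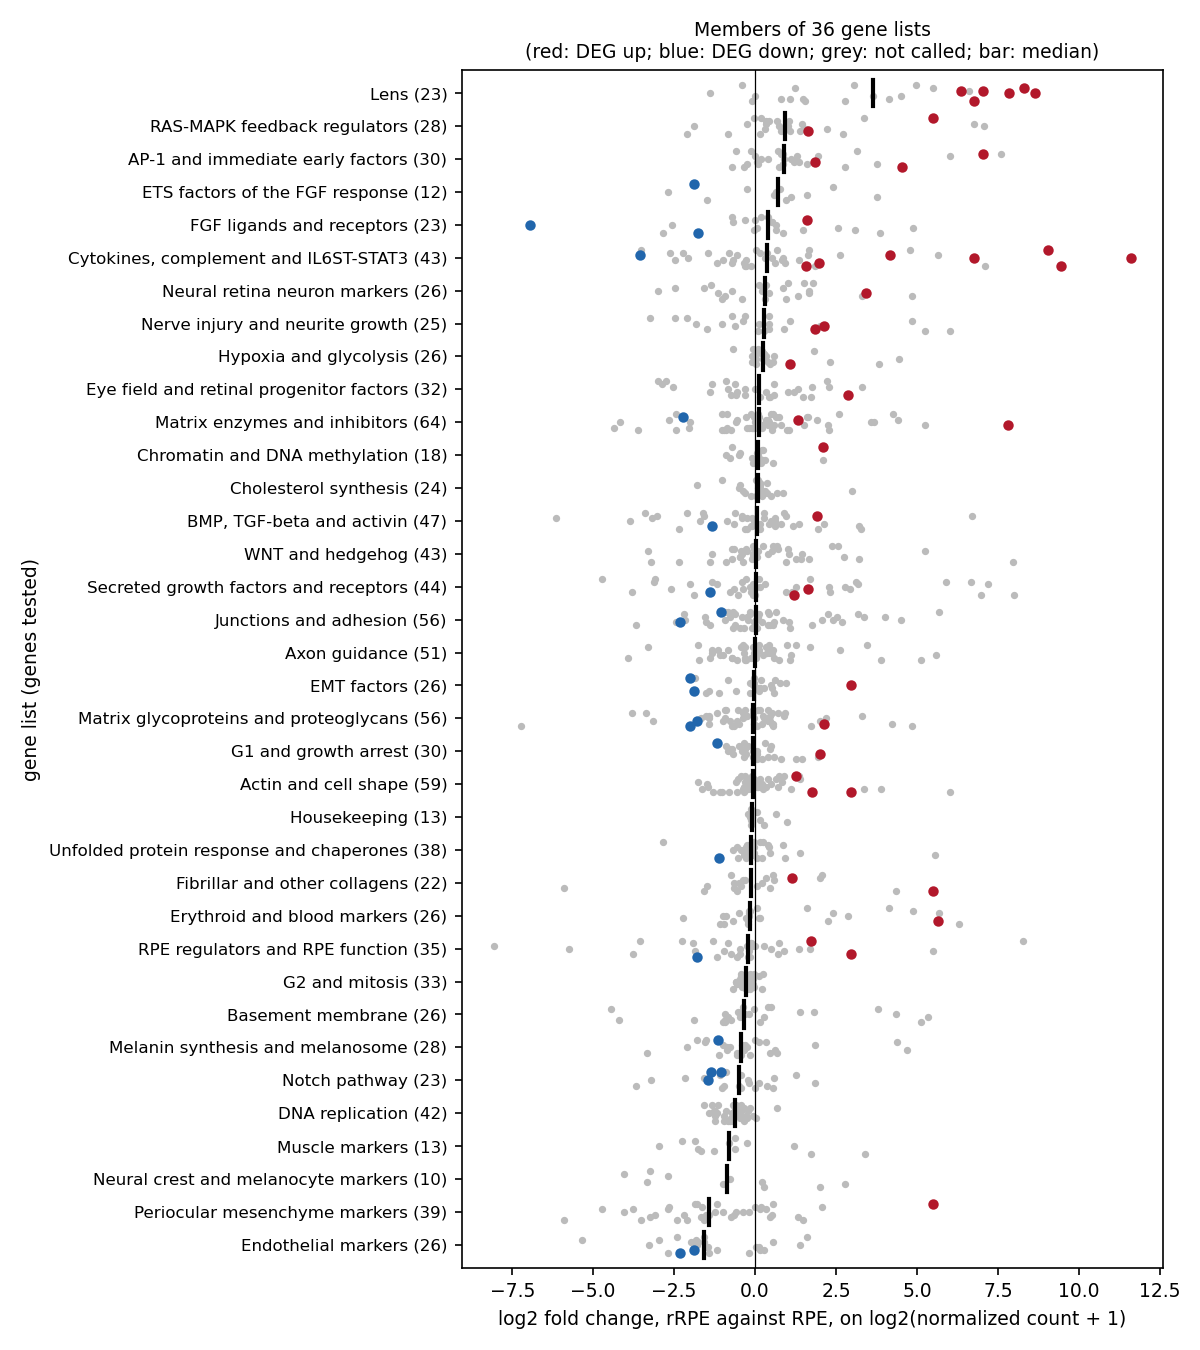
Log2 fold change of rRPE against RPE (x axis, log2(normalized count + 1)) for the tested members of 36 gene lists (y axis, with the number tested), with DEGs in red (up) and blue (down), other members in grey and the list median as a bar. The lens list has the highest median (3.66) and the endothelial list the lowest (-1.58), and DNA replication sits at -0.61 with no DEG.

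Markers of the captured tissue were abundant in both groups. The pigment genes *TYR*, which encodes the enzyme that starts melanin synthesis, and *PMEL*, the fibril protein of melanosomes, were among them. *TYR* had 63704, 87215 and 81117 in RPE and 47336, 54192 and 71888 in rRPE (log2FC -0.43 ± 0.16, adjusted p = 0.301). *PMEL* had 100059, 108892 and 101000.2 in RPE and 62859, 89007 and 119135 in rRPE (log2FC -0.24 ± 0.19, adjusted p = 0.708). The groups overlapped for both genes. *MLPH*, a melanosome linker on the same lists, was at 0 in every RPE library and at 11.2, 42.8 and 16.4 in rRPE.

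Markers of neighbouring tissues were present as well, and some moved with the groups. The gene lists here and below were written with earlier results of these data known. Their counts set beside those of all genes are therefore descriptions and no tests. Of all genes 0.677% were up-regulated and 0.351% down-regulated, which are the shares to set beside the DEGs of each list. In these bulk samples fewer cells of a type and less RNA per cell cannot be told apart. Of 26 endothelial markers 2 were down-regulated and 19 were lower, with a median log2 fold change of -1.58, and 13 lay below RPE in every rRPE library, against 8.94% of all genes. Their summed normalized count was 12904 to 27534 in RPE, 6820 to 9764 in t-rRPE and 8210 to 9215 in rRPE, and no marker was at 0 in all libraries of RPE or rRPE. *CDH5*, the cadherin of endothelial junctions, had 1858, 2631 and 3366 in RPE and 654, 402 and 492 in rRPE. It fell in rRPE (log2FC -2.33 ± 0.36, adjusted p = 0.0131), with t-rRPE at 433, 502 and 847. *ETS1*, a transcription factor of vessels and other mesoderm, fell from 1185, 1584 and 2236 to 463, 554 and 321 (log2FC -1.89 ± 0.36, adjusted p = 0.0336). *PECAM1*, another endothelial adhesion protein, was picked after its values had been seen and had 2325, 2017 and 1756 in RPE and 1972, 2804 and 2025 in rRPE (log2FC 0.15, adjusted p = 0.911), so the groups overlapped for this marker.

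Of 39 periocular mesenchyme markers 28 were lower (median -1.42), with 1 up-regulated and none down-regulated. Their sum was 27888 to 33752 in RPE and 23998 to 27715 in rRPE. *PDGFRB* was at 0 in all libraries of both groups, and *PDGFRA* and *MEOX2* were at 0 in every rRPE library. The collagen *COL1A2* had 6386, 5699 and 8328 in RPE and 9129.9, 9013 and 9743 in rRPE (log2FC 0.47, adjusted p = 0.274), and *COL5A1* had 7970.4, 6776 and 5745 in RPE and 6589.8, 4853 and 4554 in rRPE (log2FC -0.36, adjusted p = 0.485). Blood markers were abundant and varied within groups, their sum ranging from 221153 to 338647 in RPE and from 165367 to 409061 in rRPE. The globin *HBBR* had 84952, 124705 and 130082 in RPE and 93244, 61501 and 158377 in rRPE (log2FC -0.20, adjusted p = 0.884), and *HBZ* had 65546, 94129.9 and 95686 in RPE and 68131, 46196 and 115958 in rRPE (log2FC -0.23, adjusted p = 0.866). *RUNX1*, a transcription factor of blood cells, was called from few reads, with 0 in every RPE library and 24.4, 101 and 49.3 in rRPE (at least 20.2-fold higher, adjusted p = 0.0449, but 0.277 in edgeR). Of 10 neural crest and melanocyte markers none was called by limma (1 higher and 2 lower at an unadjusted p of at most 0.05), edgeR or DESeq2. In all, 4 were higher and 6 lower (median -0.88). *SOX10* had 9917, 13166 and 13663 in RPE and 13210.0, 11362 and 21752 in rRPE (log2FC 0.29, adjusted p = 0.718). *MLANA*, a melanosome protein of the Z chromosome, had 8341, 7163 and 6857 in RPE and 4168, 4153 and 3088 in rRPE (log2FC -0.98, adjusted p = 0.114). Of 13 muscle markers none was called by limma (1 higher and 0 lower at an unadjusted p of at most 0.05) or edgeR and 1 by DESeq2. In all, 3 were higher and 10 lower (median -0.79). *MYL4* had 542, 483 and 498 in RPE and 1200.0, 1453 and 947 in rRPE (log2FC 1.22, adjusted p = 0.171). *TNNC1* (log2FC -1.28, adjusted p = 0.464) and *TNNC2* (log2FC -0.61, adjusted p = 0.771) went the other way.

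FGF signalling genes moved in both directions. *FGFR1* rose, while *FGFR3* and *FGF8* fell. *FGFR1*, a receptor that binds FGF2 strongly, had 10876, 7239.5 and 7559.8 in the RPE, 11184, 8317 and 13339 in the t-rRPE and 23739.9, 27434 and 26252 in the rRPE libraries. All rRPE libraries were higher than every other library, and it was up-regulated (log2FC 1.61 ± 0.20, adjusted p = 0.00377). The difference from t-rRPE did not pass (log2FC 1.26, adjusted p = 0.08). *FGFR3* moved the other way, with 12452, 17719 and 16780.2 in the RPE, 10226, 9462 and 7643 in the t-rRPE and 3634, 4350.3 and 5896 in the rRPE libraries. Its rRPE libraries were the lowest of the 9 (log2FC -1.77 ± 0.21, adjusted p = 0.00314). *FGF8*, a ligand made by the developing eye and brain, had 212, 119.7 and 70.7 in RPE and 0 in every rRPE and t-rRPE library (at least 42.8-fold lower, adjusted p = 0.0196, but 0.135 in edgeR). Over the 23 FGF ligands and receptors tested, 1 was up- and 2 were down-regulated, 14 were higher, and the median log2 fold change was 0.39. This median was 0.10 without RPE 2, 0.59 without RPE 3 and between these with any other library left out.

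Of 28 RAS-MAPK feedback regulators 2 were up-regulated, against 0.677% of all genes, and none was down-regulated. Of the 28 genes 23 were higher, and the median log2 fold change was 0.92, against 0.00 over all genes. In 13 of them (against 9.71% of all genes) each rRPE library lay above all RPE libraries. *DUSP5*, a nuclear phosphatase of ERK, had 5205, 3579.9 and 4453 in RPE and 10365, 11670.1 and 20345 in rRPE. The groups did not overlap and it rose (log2FC 1.63 ± 0.25, adjusted p = 0.0132). *PTPRO*, a receptor-type tyrosine phosphatase, rose from 84.6, 21.1 and 49.2 to 972, 3873 and 2310.0 (log2FC 5.49 ± 0.86, adjusted p = 0.014), with 49.9, 231 and 435 in t-rRPE.

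The Sprouty genes did not pass in limma over the 9 libraries or in edgeR, with a wide spread among the t-rRPE libraries for *SPRY1* and *SPRY4*. *SPRY1* had 179, 345 and 358 in the RPE, 796, 36.4 and 628 in the t-rRPE and 1406, 2254 and 1966 in the rRPE libraries (log2FC 2.71 ± 0.93, adjusted p = 0.24). *SPRY2* had 566, 680.5 and 524 in RPE and 744, 1691 and 1540.0 in rRPE (log2FC 1.09, adjusted p = 0.339), its t-rRPE libraries lying below all RPE libraries at 263, 208 and 484. For *SPRY4* the values were 0 in every RPE library, 33.6, 0 and 69.1 in the t-rRPE and 51.8, 165 and 271 in the rRPE libraries (at least 56.4-fold higher, adjusted p = 0.0724). Each of these genes was higher in all rRPE than in all RPE libraries. DESeq2 called *SPRY1* (adjusted p = 0.00927) and *SPRY4* (adjusted p = 9.99e-05), and limma called both in the fit of the 6 RPE and rRPE libraries (adjusted p = 0.0392 and 0.0245) and without t-rRPE 2 (0.0221 and 0.0256). *DUSP6*, the cytoplasmic ERK phosphatase and a common readout of FGF signalling, showed the same order with 1022, 838 and 1548 in RPE and 3890.3, 7597 and 4449.6 in rRPE (log2FC 2.21 ± 0.83, adjusted p = 0.304). Its t-rRPE libraries were at 1863, 132 and 2104, t-rRPE 2 being the lowest of the 9 libraries, and without that library *DUSP6* was called (adjusted p = 0.0301). Unlike *SPRY1* and *SPRY4*, it was not called with the 6 RPE and rRPE libraries alone or in DESeq2 (adjusted p = 0.128). In edgeR its adjusted p was 0.272. The calls among the feedback regulators numbered 5 without t-rRPE 2, 4 with the 6 libraries alone and 9 in DESeq2.

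The ETS factors *ETV4* and *ETV5*, which FGF signalling induces in many embryonic tissues, were higher in rRPE without passing in limma over the 9 libraries or in edgeR. *ETV4* had 227, 127 and 168 in the RPE, 906, 49.5 and 909.8 in the t-rRPE and 2129, 2846 and 2013 in the rRPE libraries (log2FC 3.76 ± 0.90, adjusted p = 0.0814), so t-rRPE 2 was again the lowest library. Without t-rRPE 2 *ETV4* was called (adjusted p = 0.00959), as with the 6 RPE and rRPE libraries alone (adjusted p = 0.0117) and in DESeq2 (adjusted p = 1.16e-05). *ETV5* had 1733, 2364 and 1995 in RPE and 2401, 2605 and 4481 in rRPE (log2FC 0.59, adjusted p = 0.391). Of 12 ETS genes 8 were higher (median 0.71) and the 1 that was called, *ETS1*, fell. The abundant members *ELK3* and *GABPA* were not called, *ELK3* having 1761, 3736 and 3318 in RPE and 4423, 5581 and 4520.5 in rRPE (log2FC 0.78, adjusted p = 0.23) and *GABPA* 5851, 6712 and 4437 in RPE and 4241, 4773 and 5170.4 in rRPE (log2FC -0.25, adjusted p = 0.715).

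Of 30 immediate early and AP-1 genes 3 were up-regulated, against 0.677% of all genes, none was down-regulated, and 24 were higher (median 0.88). *FOS* and *JUN* form the AP-1 dimer. *FOS* had 15.4, 53.2 and 50.7 in the RPE, 122, 117 and 276 in the t-rRPE and 423, 1198 and 1158 in the rRPE libraries. All rRPE libraries exceeded all others, and *FOS* rose (log2FC 4.55 ± 0.74, adjusted p = 0.0177). *JUN* rose, having 619, 1194 and 883 in RPE and 2553, 3357 and 3623 in rRPE (log2FC 1.86 ± 0.32, adjusted p = 0.0236), with t-rRPE at 1565, 3303 and 2114. The remaining one, *MAFA*, is a large MAF factor that drives crystallin genes in the chick lens. It had 0 in every RPE library and 185, 213 and 57.5 in rRPE (at least 52.6-fold higher, adjusted p = 0.0481, but 0.0753 in edgeR).

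**Figure D3:**
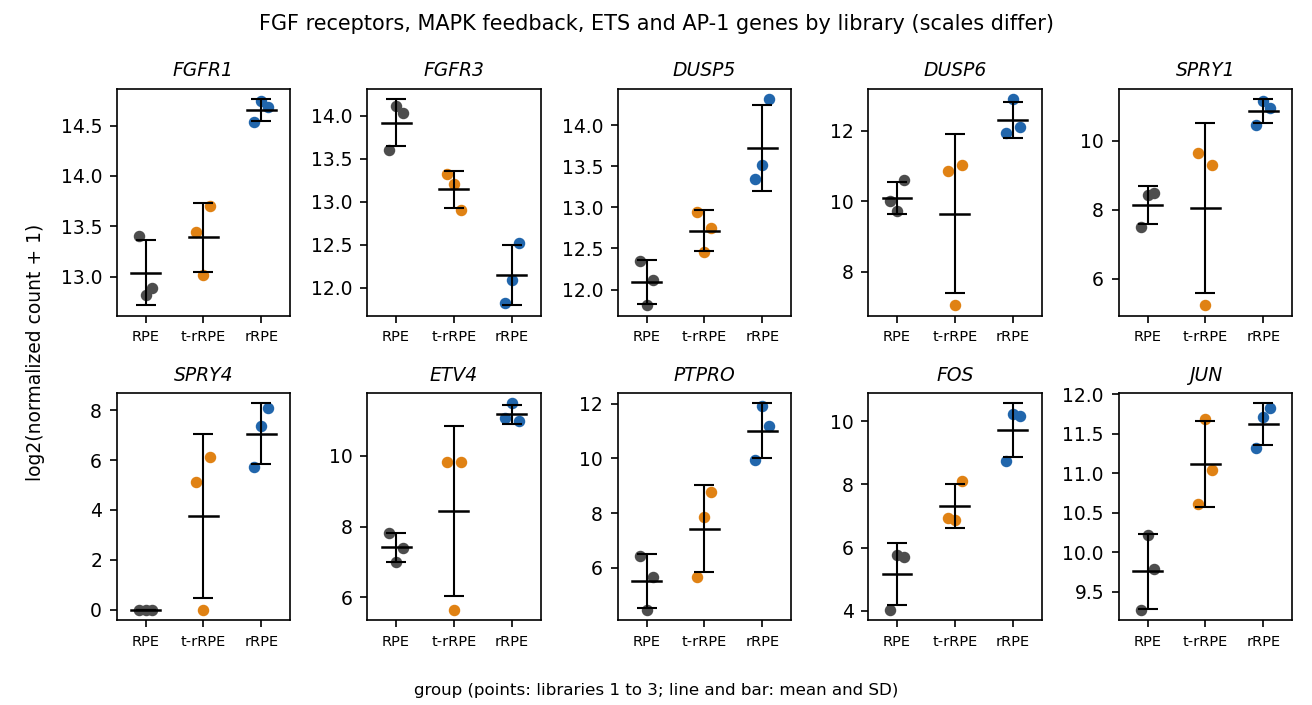
log2(normalized count + 1) of FGF receptor, feedback, ETS and AP-1 genes in the 3 RPE, 3 t-rRPE and 3 rRPE libraries (points), with the mean and SD of each group. *FGFR1*, *DUSP5*, *PTPRO*, *FOS* and *JUN* were up-regulated and *FGFR3* down-regulated, while *DUSP6*, *SPRY1*, *SPRY4* and *ETV4* were higher in all rRPE than in all RPE libraries, had t-rRPE 2 as their lowest or joint lowest library, and passed in limma without t-rRPE 2 but not over the 9 libraries.

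Of the regulators of RPE identity *MITF* fell, and *OTX2* was lower without reaching the fold threshold. *MITF*, the master regulator of pigment cells, had 3911, 5933 and 5855 in the RPE, 1548, 2886 and 2095 in the t-rRPE and 1441, 1908 and 1210.5 in the rRPE libraries. The groups RPE and rRPE did not overlap and *MITF* fell (log2FC -1.78 ± 0.28, adjusted p = 0.014). *OTX2*, its partner in RPE specification, had 14485, 13268 and 14020.0 in the RPE, 19274, 16383 and 18521 in the t-rRPE and 9273, 6893 and 9248 in the rRPE libraries. Here t-rRPE lay above RPE and rRPE below both. Against RPE the adjusted p passed but not the fold (log2FC -0.73 ± 0.14, adjusted p = 0.0406), and against t-rRPE *OTX2* was down-regulated (log2FC -1.10 ± 0.14, adjusted p = 0.0289). *PAX6*, which marks both optic cup layers and the neural retina, had 5537, 3538 and 2852 in RPE and 6239.5, 4601 and 2754 in rRPE, the groups overlapping (log2FC 0.17 ± 0.38, adjusted p = 0.913).

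Among 35 RPE regulators and functional genes 2 were up- and 1 was down-regulated, 24 were lower, and the median was -0.21. The up-regulated members were *STRA6* and *EZR*. *STRA6*, the receptor that takes up retinol, had 4403, 3483 and 3081 in the RPE, 19234, 12667 and 14802 in the t-rRPE and 10603, 11291 and 14389.9 in the rRPE libraries. It rose in rRPE (log2FC 1.73 ± 0.20, adjusted p = 0.00308), with rRPE 3 inside the range of t-rRPE and the other 2 rRPE libraries below it. Of 28 melanin and melanosome genes 1 was down-regulated and 20 were lower (median -0.42). At an unadjusted p of at most 0.05, 3 were higher and 9 lower. In 8 of the 28 each rRPE library lay below all RPE libraries, against 8.94% of all genes, and in 5 above them, against 9.71%. *RAB27A*, which tethers melanosomes to the actin cortex, had 8809, 8739.6 and 9261 in RPE and 4124, 3567 and 4447 in rRPE. It fell (log2FC -1.15 ± 0.18, adjusted p = 0.0156), with t-rRPE between the groups at 4921, 7954 and 6582.

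Of 32 eye field and retinal progenitor factors 1 was up-regulated, none was down-regulated, and the median was 0.11, with 18 higher. The abundant members *SOX4* and *NR2E1* did not pass. *SOX4*, a SOX factor of neural progenitors, had 16545, 13229.9 and 12605 in RPE and 16507, 23994 and 23294 in rRPE (log2FC 0.58, adjusted p = 0.402). *NR2E1*, an orphan nuclear receptor that keeps progenitors dividing, had 7838, 11429 and 8404 in RPE and 6042, 4978 and 7942 in rRPE (log2FC -0.55, adjusted p = 0.257). Both overlapped between the groups.

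Notch genes were lower, 16 of 23 in number, with a median of -0.48. None was up-regulated and 3 were down-regulated, against 0.351% of all genes. In 8 of them each rRPE library lay below all RPE libraries, against 8.94% of all genes. The median of this list against t-rRPE was 0.19. *HEY1*, a repressor that Notch induces, had 2053, 2454 and 2796 in the RPE, 651, 764 and 528 in the t-rRPE and 937, 923 and 771 in the rRPE libraries. It fell (log2FC -1.47 ± 0.26, adjusted p = 0.0254) and was low in both injured groups. *LFNG*, a glycosyltransferase that tunes the response of Notch to its ligands, fell from 8312, 6046 and 6119 to 2914, 4233 and 2812 (log2FC -1.05 ± 0.21, adjusted p = 0.0433, but 0.0668 in edgeR). *ID2*, an inhibitor of bHLH factors placed on the same list, had 26061, 23901 and 23267 in the RPE, 22852, 23165 and 19055 in the t-rRPE and 10659, 9928 and 8342 in the rRPE libraries. The rRPE libraries lay below all others, and *ID2* fell against RPE (log2FC -1.35 ± 0.13, adjusted p = 0.00248) and against t-rRPE (log2FC -1.17 ± 0.13, adjusted p = 0.0133).

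Of 18 chromatin and DNA methylation genes 1 was called. *GADD45B*, an injury-induced gene linked to active DNA demethylation, rose to 921, 1569 and 1026 in rRPE against 312, 199 and 299.7 in RPE (log2FC 2.10 ± 0.37, adjusted p = 0.0236), with 476, 449.8 and 490.1 in t-rRPE. The methyltransferase *DNMT3A* had 6761, 7015 and 6348 in RPE and 5907, 5466 and 7844 in rRPE (log2FC -0.08, adjusted p = 0.897). The glycosylase *TDG*, which removes oxidised methylcytosine, had 5707, 4949 and 6461 in RPE and 7389.8, 4619 and 8436 in rRPE (log2FC 0.22, adjusted p = 0.765).

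**Figure D4:**
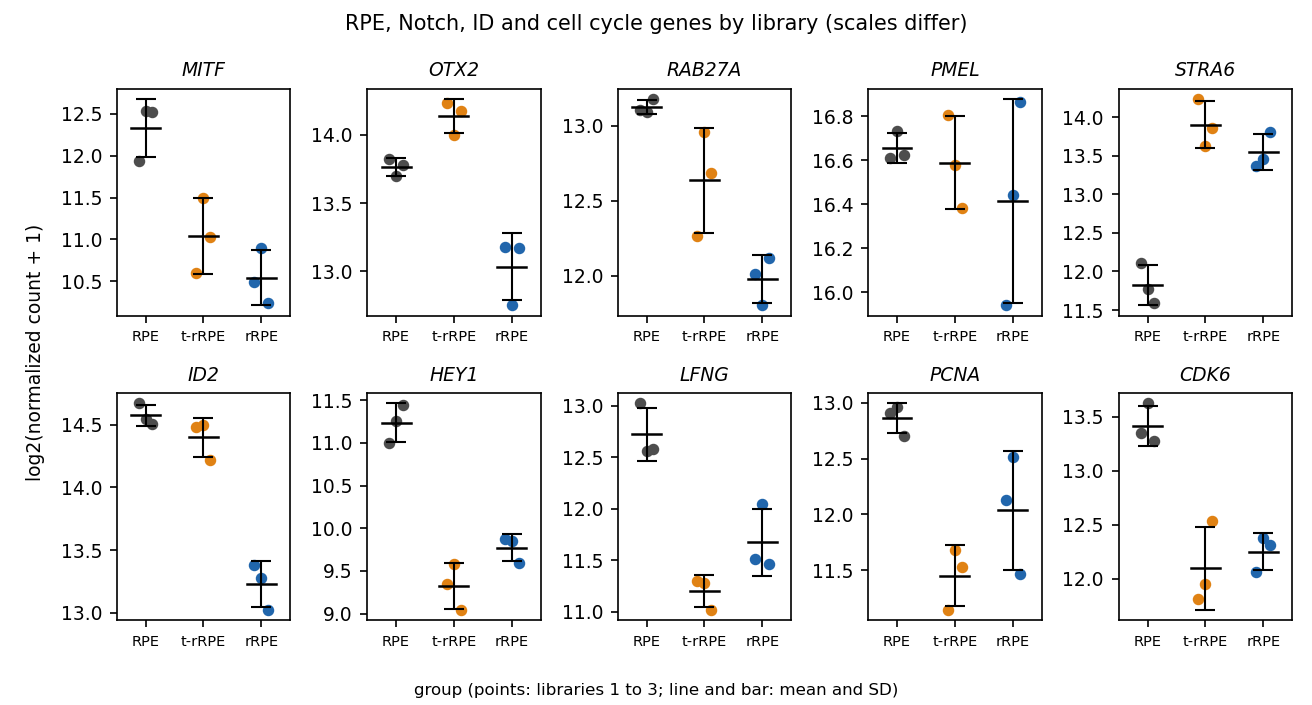
log2(normalized count + 1) of RPE identity, pigment, Notch, ID and cell cycle genes in each library (points), with group means and SDs. *MITF*, *RAB27A*, *ID2*, *HEY1*, *LFNG* and *CDK6* were down-regulated in rRPE and *STRA6* up-regulated, *PMEL* overlapped between the groups, and *OTX2* and *PCNA* lay below RPE in every rRPE library without being DEGs.

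The BMP, TGF-beta and activin genes split evenly, with 24 higher and 23 lower of 47 (median 0.05) and 1 call in each direction. *SMAD6*, an inhibitory SMAD that BMP induces, had 728, 699 and 652 in the RPE, 1527, 775 and 985 in the t-rRPE and 2157, 3451 and 2323 in the rRPE libraries. It rose (log2FC 1.90 ± 0.30, adjusted p = 0.0155). *BAMBI*, a pseudoreceptor that blocks BMP and TGF-beta receptors, fell from 4702, 2964 and 2944 to 1729, 1329.6 and 1092 (log2FC -1.34 ± 0.27, adjusted p = 0.0433, but 0.0646 in edgeR). *TGFB3*, a TGF-beta ligand named for its difference from t-rRPE, had 1908, 2045 and 1603 in the RPE, 946, 949 and 768 in the t-rRPE and 2142, 3493 and 2890.1 in the rRPE libraries. Against RPE it was not called (log2FC 0.60, adjusted p = 0.348), and against t-rRPE it was higher (log2FC 1.66 ± 0.24, adjusted p = 0.0464). Of 43 WNT and hedgehog genes none was called by limma (4 higher and 1 lower at an unadjusted p of at most 0.05) or edgeR and 2 by DESeq2, and the median was 0.04. *CTNNB1*, the beta-catenin gene, had 18810.2, 19768 and 22540.4 in RPE and 21421, 16669 and 21098 in rRPE (log2FC -0.05, adjusted p = 0.942). The WNT antagonist *SFRP1* had 12961, 12768 and 13150.1 in RPE and 14582, 10341 and 16042 in rRPE (log2FC 0.05, adjusted p = 0.991), and the receptor *FZD2* had 3682, 3499 and 3266 in RPE and 4199, 4952 and 4689 in rRPE (log2FC 0.40, adjusted p = 0.582).

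Chemokine and cytokine genes held the largest fitted rise of the comparison, that of *CXCL14*. Of 43 genes of cytokines, complement and the IL6ST-STAT3 axis 7 were up-regulated, against 0.677% of all genes, and 1 was down-regulated, with a median of 0.38. The list was written with earlier results of these data known, so its share of DEGs is a description and no test. *CXCL14*, a chemokine of epithelia, had 0 in every RPE library, 129, 68.1 and 511 in the t-rRPE and 3654, 1838 and 4502 in the rRPE libraries. It was at least 1156-fold higher in rRPE than in RPE (adjusted p = 0.0011), the lowest adjusted p of the comparison. The difference from t-rRPE did not pass (log2FC 4.23, adjusted p = 0.178). *NMU*, the neuropeptide neuromedin U, was also 0 in every RPE library and had 117, 90.5 and 394 in the t-rRPE and 1085, 850.2 and 362 in the rRPE libraries (at least 266-fold higher, adjusted p = 0.00248). A gene annotated as the chemokine *CCL4* had 0 in every RPE library and 342, 546 and 775 in rRPE (at least 192-fold higher, adjusted p = 0.00272). Related chemokine copies can share its reads.

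*CXCR4*, the receptor of the guidance chemokine CXCL12, had 149, 228 and 311 in the RPE, 754, 2356 and 958 in the t-rRPE and 4402, 4137 and 3353 in the rRPE libraries. Its groups did not overlap and it rose (log2FC 4.16 ± 0.43, adjusted p = 0.00248). *SOCS3*, a feedback inhibitor of cytokine receptors, had 0, 7.82 and 134 in RPE and 682, 1399.6 and 1616 in rRPE (log2FC 6.77 ± 1.38, adjusted p = 0.0449, but 0.188 in edgeR). The other called members were named after their values had been seen. *IL6ST*, the gp130 chain that IL6-type receptors share, had 242, 332 and 426 in RPE and 1015, 1333 and 1556 in rRPE (log2FC 1.98 ± 0.34, adjusted p = 0.0236), and it lies on the Z chromosome. *STAT3*, the transcription factor below it, rose from 2928, 3008 and 2510.5 to 6365, 8424 and 10596 (log2FC 1.56 ± 0.24, adjusted p = 0.0131). *IL16*, a cytokine that attracts lymphocytes, fell from 5023, 13587 and 12375 to 568, 349 and 2672 (log2FC -3.54 ± 0.64, adjusted p = 0.0277).

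Of 44 secreted growth factors and receptors 2 were up- and 1 was down-regulated. *PTN*, the heparin-binding factor pleiotrophin, had 4632, 5401 and 5082 in the RPE, 12039, 5325 and 13879.7 in the t-rRPE and 16259, 10794 and 21365 in the rRPE libraries (log2FC 1.63 ± 0.33, adjusted p = 0.0449, but 0.0545 in edgeR). *ANGPTL4*, a regulator of lipoprotein lipase, had 2366, 1941 and 2134 in RPE and 6273, 4855 and 3841 in rRPE (log2FC 1.19 ± 0.20, adjusted p = 0.0223), with t-rRPE at 5799, 5515 and 6927. Both rose. *APLN*, the vessel guidance peptide apelin, fell from 1451, 1573 and 1525 to 618, 584 and 522 (log2FC -1.40 ± 0.26, adjusted p = 0.0321). The summed endothelial markers were lower in rRPE as given above, and the part of endothelial cells in the fall of *APLN* was not tested.

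Growth control genes were called in both directions, and the genes of DNA synthesis were lower without a call. *BTG2*, an antiproliferative gene of the early response, had 2009, 1732 and 1387 in the RPE, 6142, 4682 and 4246 in the t-rRPE and 9157, 6519.7 and 5416 in the rRPE libraries. It rose (log2FC 2.02 ± 0.24, adjusted p = 0.00314). *CDK6*, a kinase of the G1 phase, had 10432, 12629 and 9911 in the RPE, 3592, 3949 and 5926 in the t-rRPE and 4270.0, 5333 and 5090.3 in the rRPE libraries and fell (log2FC -1.16 ± 0.20, adjusted p = 0.0236). Over 30 genes of G1 and growth arrest these were the only DEGs, and the median was -0.07.

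Of 42 DNA replication genes 40 were lower in rRPE, with a median of -0.61, and 21 lay below RPE in every rRPE library, against 8.94% of all genes. None was called by limma (0 higher and 8 lower at an unadjusted p of at most 0.05), none by edgeR and 2 by DESeq2. Their summed normalized count was 136851 to 154539 in RPE, 64309 to 107222 in t-rRPE and 80812 to 119946 in rRPE. *PCNA*, the sliding clamp of the replication fork, had 7702, 7977 and 6687 in the RPE, 2267, 3276 and 2961 in the t-rRPE and 4491, 5865 and 2825 in the rRPE libraries (log2FC -0.82 ± 0.25, adjusted p = 0.181). *RRM1*, a subunit of the enzyme that makes deoxynucleotides, had 10944, 8283 and 10638 in RPE and 6579.6, 6299 and 5515 in rRPE (log2FC -0.69, adjusted p = 0.515). *DUT*, which clears dUTP, had 9212, 7607 and 7463 in RPE and 5189.8, 6574 and 3094 in rRPE (log2FC -0.77, adjusted p = 0.226), and the clamp loader *RFC5* had 6488, 6949 and 6423 in RPE and 4318, 6117 and 3749 in rRPE (log2FC -0.52, adjusted p = 0.502). The groups did not overlap for these 4 genes, and rRPE 2 was the highest rRPE library for *PCNA*, *DUT* and *RFC5*.

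Of 33 genes of G2 and mitosis 30 were lower (median -0.29), and none was called by limma (0 higher and 1 lower at an unadjusted p of at most 0.05), edgeR or DESeq2. *TOP2A*, the topoisomerase of mitotic chromosomes, had 16245, 18289.6 and 20071 in the RPE, 9990.4, 21887 and 10771 in the t-rRPE and 12795, 13583 and 11215 in the rRPE libraries (log2FC -0.54, adjusted p = 0.433). The mitotic kinase *CDK1* had 16954, 13056 and 14878 in RPE and 11614, 15550.4 and 8320.2 in rRPE (log2FC -0.38, adjusted p = 0.709), and *PLK1* had 13642, 11949.6 and 12079 in RPE and 12491, 13607 and 9993 in rRPE (log2FC -0.07, adjusted p = 0.983). Outside the lists, *PCNT*, the centrosome scaffold pericentrin, fell from 6121, 6099.9 and 4114 to 1745, 2318 and 1841 (log2FC -1.46 ± 0.22, adjusted p = 0.0131).

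Genes of epithelial-mesenchymal transition (EMT) moved in both directions. Of 26 EMT factors 1 was up- and 2 were down-regulated, and the median was -0.03. *TAGLN*, the actin-binding protein transgelin, had 123, 105 and 126 in the RPE, 253, 514 and 493 in the t-rRPE and 588, 1881 and 733 in the rRPE libraries and rose (log2FC 2.98 ± 0.53, adjusted p = 0.0261). *FN1*, fibronectin, had 6848, 6992 and 7305 in the RPE, 3930.2, 2102 and 2224 in the t-rRPE and 2529, 856 and 2526 in the rRPE libraries. It fell (log2FC -2.00 ± 0.39, adjusted p = 0.0362, but 0.07 in edgeR). *ETS1*, the other member that fell, and *FN1* are also made by endothelial and mesenchymal cells, whose summed markers were lower in rRPE. The part of those cells in the falls was not tested.

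*TNC*, the injury-induced glycoprotein tenascin C, had 1603, 1846 and 1571 in the RPE, 3071, 6214 and 4773 in the t-rRPE and 4207, 11057 and 8179 in the rRPE libraries. It rose (log2FC 2.12 ± 0.34, adjusted p = 0.0156). *FBN1*, the microfibril protein fibrillin 1, fell from 5281, 3983 and 4844 to 883, 1009 and 2765 (log2FC -1.79 ± 0.36, adjusted p = 0.0449, but 0.117 in edgeR), rRPE 3 being the highest rRPE library. These and *FN1* were the only calls among 56 matrix glycoproteins and proteoglycans (median -0.05). Among 64 matrix enzymes and inhibitors (median 0.11) 2 were up- and 1 was down-regulated. *MMP9*, a gelatinase, had 0 in every RPE library, 0, 15.9 and 36.5 in the t-rRPE and 112, 515 and 193 in the rRPE libraries (at least 94.8-fold higher, adjusted p = 0.0366, but 0.0945 in edgeR).

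The metalloproteinase inhibitors moved apart. *TIMP2* had 8379, 6479 and 6717 in the RPE, 12938, 10103 and 12787 in the t-rRPE and 15946, 20466 and 17346 in the rRPE libraries and rose (log2FC 1.32 ± 0.16, adjusted p = 0.00362). *TIMP3*, the inhibitor bound to Bruch's membrane under the RPE, had 2976, 3613 and 4390.0 in the RPE, 1102, 481 and 1337 in the t-rRPE and 725, 916 and 716 in the rRPE libraries and fell (log2FC -2.21 ± 0.36, adjusted p = 0.0169). Of 26 basement membrane genes 16 were lower (median -0.34), and none was called by limma (5 higher and 3 lower at an unadjusted p of at most 0.05) or edgeR and 1 by DESeq2. *LAMB1* had 13495, 19110.1 and 19335 in RPE and 16241, 18581 and 22825 in rRPE (log2FC 0.16, adjusted p = 0.858), and *LAMA1* had 9729, 10101 and 7669.7 in RPE and 4489, 9154 and 12825 in rRPE (log2FC -0.17, adjusted p = 0.912), the groups overlapping for both laminin chains. *SPARC* had 10838, 10866 and 10338 in RPE and 14919.6, 14798 and 12741 in rRPE (log2FC 0.40, adjusted p = 0.403). Of 22 collagens 2 were up-regulated. *COL9A2*, a collagen of the embryonic eye and cartilage, rose from 3535, 2579.5 and 3084 to 7015, 6346 and 6681 (log2FC 1.13 ± 0.17, adjusted p = 0.0128), and *COL6A2* had 8.65, 0 and 15.4 in RPE and 303, 291 and 166 in rRPE (log2FC 5.51 ± 1.14, adjusted p = 0.0478, but 0.117 in edgeR).

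**Figure D5:**
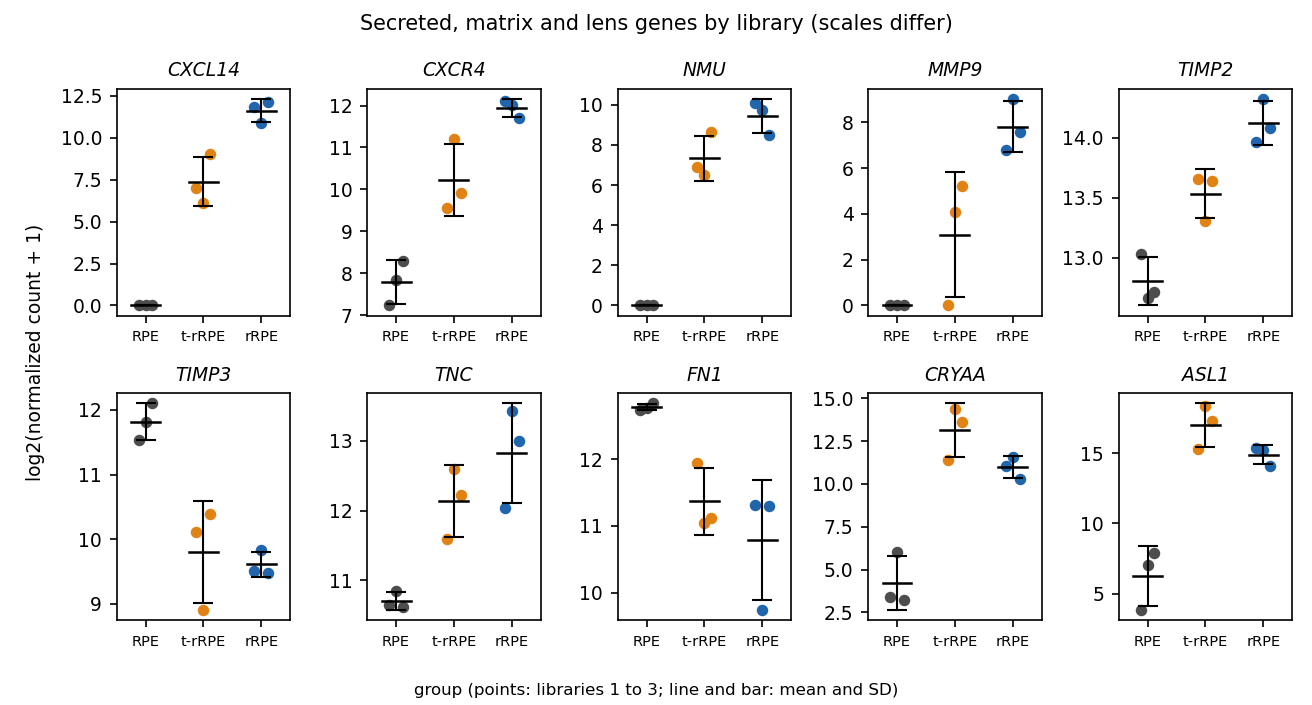
log2(normalized count + 1) of secreted, matrix and lens genes in each library (points), with group means and SDs. *CXCL14*, *NMU* and *MMP9* were at 0 in every RPE library, *TIMP2* and *TNC* rose while *TIMP3* and *FN1* fell in rRPE, and *CRYAA* and *ASL1* were higher in both injured groups than in RPE.

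Of 59 genes of actin and cell shape 3 were up-regulated and none was down-regulated, against 0.677% and 0.351% of all genes. *EZR*, ezrin, which anchors actin in RPE microvilli, had 979, 354 and 968 in the RPE, 1219.6, 682 and 1939 in the t-rRPE and 4999, 6370.3 and 5032 in the rRPE libraries. All rRPE libraries were above all others (log2FC 2.96 ± 0.44, adjusted p = 0.0117). *SLC9A3R1*, a scaffold that binds ezrin, had 3193, 2380.1 and 2743 in the RPE, 2104, 1412 and 2148 in the t-rRPE and 6202, 11393 and 11492 in the rRPE libraries. It rose against RPE (log2FC 1.76 ± 0.27, adjusted p = 0.0131) and was higher than in t-rRPE (log2FC 2.33 ± 0.27, adjusted p = 0.0133).

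*FSCN1*, fascin, which bundles actin in filopodia, had 7452, 7009 and 7497 in the RPE, 8752, 8312 and 6724 in the t-rRPE and 18667, 17967 and 16525 in the rRPE libraries, the rRPE libraries again standing above all others. It rose against RPE (log2FC 1.27 ± 0.14, adjusted p = 0.00248) and was higher than in t-rRPE (log2FC 1.17 ± 0.14, adjusted p = 0.0133). The median of the actin genes was -0.07, with 32 lower. The beta-tubulin *TUBB6*, outside the lists and named for its difference from t-rRPE, had 3159, 3577 and 3464 in the RPE, 3801, 3887 and 3610.4 in the t-rRPE and 8899, 13859 and 8566 in the rRPE libraries and was also higher than in t-rRPE (log2FC 1.44 ± 0.19, adjusted p = 0.0289).

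Of 56 junction and adhesion genes 2 were down-regulated and none up-regulated (median 0.02), *CDH5* as above and *NCAM1*. *NCAM1*, the neural cell adhesion molecule, fell from 5279, 5512 and 5434 to 3007, 2549.6 and 2352 (log2FC -1.04 ± 0.20, adjusted p = 0.0331). No axon guidance gene was called among 51 by limma (median 0.00, 3 higher and 6 lower at an unadjusted p of at most 0.05), edgeR or DESeq2. *SEMA5B* came nearest with 7234, 7348 and 7893 in RPE and 3985, 3642 and 5099.5 in rRPE, past the adjusted p but not the fold (log2FC -0.83 ± 0.17, adjusted p = 0.0449). *EPHB1* had 7015, 7117 and 7719 in RPE and 4280.2, 4730.5 and 4451 in rRPE (log2FC -0.70 ± 0.15, adjusted p = 0.0506), and *EPHB3* had 6065, 5283 and 7335 in RPE and 5697, 6810.1 and 6628 in rRPE (log2FC 0.04, adjusted p = 0.973).

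Lens genes gave the highest list median, 3.66 over 23 genes, with 6 up-regulated, against 0.677% of all genes, and 19 higher. Their summed normalized count was 2345 to 3749 in RPE, 51974 to 415018 in t-rRPE and 25752 to 54558 in rRPE, with *ASL1* making up most of it in the operated groups. *ASL1*, which encodes the delta-crystallin of birds, had 13.5, 129.8 and 232 in the RPE, 39430.0, 332972 and 160226 in the t-rRPE and 41516, 38876 and 17338 in the rRPE libraries (log2FC 8.64 ± 0.95, adjusted p = 0.00248). *CRYAA*, the alpha-crystallin chaperone, had 9.61, 64.9 and 8.45 in the RPE, 2647, 21424 and 12730.1 in the t-rRPE and 2150.2, 3103 and 1256 in the rRPE libraries (log2FC 6.76 ± 0.84, adjusted p = 0.00427). Both genes were highest in t-rRPE 2 and 3. *BFSP1*, the lens filament protein filensin, had 0 in every RPE library and 358, 218 and 397 in rRPE (at least 113-fold higher, adjusted p = 0.014). *CRYBA2* had 0, 0 and 24.6 in RPE and 976, 863 and 372 in rRPE (log2FC 7.85 ± 1.23, adjusted p = 0.014, but 0.0534 in edgeR). The other lens DEGs were *MAFA* and *CRYBA4*, both at 0 in every RPE library. The lens lies at the front of the operated eye, and the part of lens tissue or lens RNA in these values was not tested.

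Genes of nerve injury and neurite growth were higher in 15 of 25 cases (median 0.29), *JUN* and *TNC* being the DEGs. Of 26 retinal neuron markers 1 was up-regulated, and the median was 0.32. *SCG2*, a granin of secretory vesicles in neurons, had 75.9, 200.2 and 459.5 in the RPE, 645, 294 and 1019 in the t-rRPE and 1474, 2511 and 2387 in the rRPE libraries and rose (log2FC 3.43 ± 0.63, adjusted p = 0.0308, but 0.0668 in edgeR). The summed neuron markers were 19265 to 22740 in RPE and 22726 to 26174 in rRPE, and the defining marker *STMN2* was at 0 in every RPE library and at 92.4, 253 and 0 in rRPE. *TUBB3*, the neuronal beta-tubulin, had 9786, 8261 and 7325 in RPE and 11959, 10286 and 12212 in rRPE (log2FC 0.45, adjusted p = 0.47), and *ELAVL4* had 7606, 3803 and 3271 in RPE and 3057, 3944 and 3393 in rRPE (log2FC -0.40, adjusted p = 0.669).

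Stress and metabolism genes showed few calls. *HSPA5*, the main chaperone of the endoplasmic reticulum, had 36628, 43246 and 44266 in the RPE, 10141, 16684 and 14958 in the t-rRPE and 16659.7, 20386 and 20853 in the rRPE libraries and fell (log2FC -1.10 ± 0.18, adjusted p = 0.0184), the only call among 38 genes of the unfolded protein response and chaperones (27 lower, median -0.11). The heat shock genes *HSPA8* (log2FC -0.21, adjusted p = 0.535) and *HSP90AA1* (log2FC -0.42, adjusted p = 0.341) were not called. Of 26 genes of hypoxia and glycolysis 22 were higher (median 0.26) and 1 was up-regulated. *PFKP*, a phosphofructokinase, rose from 2619, 3201 and 2692 to 5247, 7338 and 5686 (log2FC 1.09 ± 0.18, adjusted p = 0.0196), while *LDHB* had 64973, 59623 and 59755 in RPE and 70449, 75079 and 73775 in rRPE (log2FC 0.25, adjusted p = 0.282).

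Of 24 cholesterol synthesis genes none was called by limma (1 higher and 2 lower at an unadjusted p of at most 0.05, median 0.10), edgeR or DESeq2. *MVK* (log2FC 0.12, adjusted p = 0.828) and *SREBF2* (log2FC 0.09, adjusted p = 0.904) overlapped between the groups. Among 13 housekeeping genes none was a DEG in limma (median -0.09, 1 higher and 0 lower at an unadjusted p of at most 0.05), edgeR or DESeq2. *GAPDH* had 164865, 121201 and 120338 in RPE and 168535, 190913 and 135002 in rRPE (log2FC 0.28, adjusted p = 0.641), *EEF1A1* had 206881, 208177 and 197397 in RPE and 204449, 178689 and 192619 in rRPE (log2FC -0.09, adjusted p = 0.773), and *PPIA* overlapped between the groups as well (log2FC -0.13, adjusted p = 0.832).

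Among DEGs with a symbol, those with the largest rises outside these lists were low or silent in RPE. *ENSGALG00000042587*, which has no symbol, had a larger rise, with 0 in every RPE library and 815, 1543 and 3371 in rRPE (at least 662-fold higher, adjusted p = 0.00127). *CHL1*, a neural adhesion molecule, had 0 in every RPE library and 384, 133 and 83.2 in rRPE (at least 69.3-fold higher, adjusted p = 0.0267). *DAW1*, an assembly factor of ciliary dynein, had 0 in every RPE library and 243, 234 and 275 in rRPE (at least 86.9-fold higher, adjusted p = 0.00556). *DMRT3*, a transcription factor gene of the Z chromosome, had 0 in every RPE library, 428, 99.9 and 97.8 in the t-rRPE and 225, 120.1 and 85.2 in the rRPE libraries (at least 49.8-fold higher, adjusted p = 0.0156). It was thus highest in t-rRPE 1, a library with W reads. Among the lowest p values for rises were also those of *TSC22D1* and *TRIM54*. *TSC22D1*, a leucine zipper gene that TGF-beta induces, had 4192, 3807 and 2865 in the RPE, 6420.5, 3378 and 7169 in the t-rRPE and 17230.3, 18626 and 21771 in the rRPE libraries (log2FC 2.42 ± 0.26, adjusted p = 0.00248), and it was higher than in t-rRPE (log2FC 1.83 ± 0.26, adjusted p = 0.0436). *TRIM54* had 59.6, 79 and 21.5 in the RPE, 479, 224 and 671 in the t-rRPE and 2338, 3119 and 1445 in the rRPE libraries (log2FC 5.52 ± 0.61, adjusted p = 0.00248).

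The largest falls included an abundant gene and several that were lost from low levels. *SERPINE3*, a serpin, had 7376, 21363 and 20074 in the RPE, 2656, 1942 and 1531 in the t-rRPE and 398, 212 and 989 in the rRPE libraries, so that each group stood below the one before it (log2FC -5.07 ± 0.53, adjusted p = 0.00248). *PLA2G7*, which inactivates platelet-activating factor, fell from 6119, 6194 and 5417 to 2070.0, 2281 and 3014 (log2FC -1.28 ± 0.18, adjusted p = 0.0107). *FAM124A* had 826, 1302 and 1148 in RPE and 30.5, 78.3 and 221 in rRPE (log2FC -3.71 ± 0.72, adjusted p = 0.0362, but 0.0657 in edgeR), and *INKA2* had 205, 306 and 184 in RPE and 5.08, 0 and 0 in rRPE (log2FC -6.96 ± 1.35, adjusted p = 0.0362, but 0.206 in edgeR). Every rRPE library was at 0 for *GHRL*, the ghrelin gene (at least 28-fold lower), *MYO18B*, a myosin (at least 28.3-fold lower), *ALC* (at least 23.5-fold lower) and *DUOX2*, a dual oxidase (at least 26.3-fold lower). Their adjusted p values were 0.0379, 0.0289, 0.0267 and 0.0351, and edgeR called none of them (adjusted p = 0.114, 0.206, 0.228 and 0.227). Apart from *GHRL* these were also at 0 in every t-rRPE library.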

How the data were processed

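RNA of laser-captured chick RPE was reverse transcribed with an oligo(dT) primer, amplified and sequenced in 9 libraries, 3 per group, each group's libraries being separate embryos. Per the submitters' processing notes, Trim Galore 0.6.1, cutadapt 1.18, STAR 2.7.3, StringTie 2.0.4 and DESeq2 1.22.2 were used with the build GRCg6a. The authors deposited counts per gene divided by a size factor per library, a signal in normalized counts. Reads were counted without strand, so those of overlapping and antisense genes cannot be told apart.

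Whole reads were recovered from all values (within 0.001 of a whole number). Genes whose normalized counts summed to 20 or more were kept. Symbols came from the deposited table (11570 of 16535 genes), and 11084 genes were placed on a chromosome by symbol in a RefSeq gene table. log2(normalized count + 1) was fitted with limma 3.58.1 (R 4.3.3) with a mean-variance trend and 1 mean per group over 9 libraries, and p values were adjusted over all 16535 genes (Benjamini-Hochberg). edgeR 4.0.16 and DESeq2 1.42.0 on the recovered reads, other pseudocounts, filters and scalings, a replicate block, a *HINTW* covariate and leaving out each library were alternatives. In simulated counts over 15616 genes for rRPE against RPE, 127 of 200 changed genes were recovered with 4 false calls. The changed genes were taken from those above a minimum mean and were given folds above the DEG threshold. All other genes kept the same mean in every group, so differences of t-rRPE and of W status were not simulated. Recovery of smaller changes and of genes with low counts was not tested.

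Members and lists were chosen with earlier results of these data known. Named were up to 5 DEGs per list with the largest change, filled to 3 with the most abundant members where fewer than 2 were called, the 10 largest and the 10 lowest-p DEGs in each direction, W genes and 17 preset genes. A few genes are not reported here. Deviations of same-numbered RPE and rRPE libraries were hardly correlated (r 0.000347 to 0.0366, against -0.0467 to 0.0246 for differently numbered ones), so numbers were not used as pairs. The amplified reads carry no molecular identifiers, so floors of 3 reads cover counting error only.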

Additional observations from a re-analysis of the deposited data

Results flagged for a closer look

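Of the 9 genes that passed the test of rRPE against t-rRPE itself, the 8 with a symbol are given here. The other has no symbol in the deposited table. Passing means that the change from RPE differed between the operated groups. *FSCN1* (1.17), *TUBB6* (1.44), *SLC9A3R1* (2.33), *TSC22D1* (1.83), *TGFB3* (1.66) and *RGS10* (3.08) were higher in rRPE, as log2 fold changes against t-rRPE, and *ID2* (-1.17) and *OTX2* (-1.10) were lower. The adjusted p values in limma were 0.0133, 0.0289, 0.0133, 0.0436, 0.0464 and 0.0133 for the higher and 0.0133 and 0.0289 for the lower genes. In each of the 8 genes the 3 rRPE libraries did not overlap with the 3 t-rRPE libraries.

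*RGS10*, a regulator of G protein signalling, had 524, 1176 and 959.8 in the RPE, 227, 286 and 239.8 in the t-rRPE and 2164, 1905 and 2299.8 in the rRPE libraries, so t-rRPE lay below and rRPE above all RPE libraries. *TGFB3* had the same order. For *OTX2* the order was reversed, with t-rRPE above and rRPE below RPE. *FSCN1*, *TUBB6*, *SLC9A3R1* and *TSC22D1* had every rRPE library above all others. In t-rRPE *SLC9A3R1* lay below all RPE libraries, and *TSC22D1* lay above them in t-rRPE 1 and 3. *ID2* stood apart in rRPE as well, in the downward direction.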

How the results depend on the processing

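No called result changed its direction under any alternative, though a fit with its own level as a covariate says nothing of *HINTW*. Other pseudocounts (0.5 and 5), no filter, a mean of at least 10, TMM factors, quantile or upper-quartile scaling, and leaving out Z- and W-linked genes gave 151 to 193 DEGs in place of 170. The 6 RPE and rRPE libraries alone gave 231, of which 105 were among the 170, and 22 of the 67 named DEGs lost their call. limma without the trend gave 71 DEGs, 51 up and 20 down, 31 against t-rRPE and 15 in the gene lists in place of 56. edgeR gave 101, 73 up and 28 down, and DESeq2 575, 393 up and 182 down, with 230 against t-rRPE and 113 in the lists. With the *HINTW* covariate 3 genes passed, 0 up and 3 down, 0 against t-rRPE and 1 in the lists, while 137 of the 170 kept the fold with an unadjusted p of at most 0.05. A fit of only the 6 rRPE and t-rRPE libraries gave 0 calls between these groups in place of 9. Of the 4 W-linked transcripts 2 were called, in comparison to 0 with a pseudocount of 0.5, 1 with a mean of at least 10, 1 with upper-quartile scaling, 0 without the trend, 0 in edgeR, 2 in DESeq2 and 4 with the 6 libraries.

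With 1 library left out, the DEGs ranged from 0 (without rRPE 1) to 187, those up-regulated from 0 to 119, those down-regulated from 0 to 70, those against t-rRPE from 0 to 1, W-linked calls from 0 to 4 and calls in the lists from 0 to 56. List medians moved as well, for example from -0.34 to -0.44 and -0.12 for basement membrane, from -0.29 to -0.42 and -0.12 for G2 and mitosis, from 0.32 to 0.10 and 0.45 for neuron markers and from 0.11 to -0.05 and 0.45 for eye field factors. The fit with a replicate block gave 132 DEGs, 121 of them among the 170, 6 against t-rRPE and 1 W-linked call. The replicate numbers were not tied to a shared animal or day and same-numbered libraries did not deviate together, so they share only a number. The cause of these differences was not tested. Promoter motifs were not run. The calls depended on single libraries, as given above. The signs of the 170 DEGs could not change with 1 library left out, since no DEG overlapped between the groups.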

Other observations

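Several DEGs outside the gene lists were singled out after their values had been seen. *CA2*, carbonic anhydrase II, an abundant enzyme of RPE ion transport, fell from 99851, 124265 and 125221 in RPE to 49532, 38580.3 and 76670.3 in rRPE (log2FC -1.14 ± 0.21, adjusted p = 0.0307). The t-rRPE libraries, at 67038, 77815 and 82785, lay below RPE and overlapped with rRPE. *SLC6A13*, a GABA transporter, fell from 861, 1127 and 1236 to 168, 185 and 274 (log2FC -2.37 ± 0.49, adjusted p = 0.0449), and *CHRM4*, a muscarinic receptor, from 3320.2, 5278 and 4459 to 1430.4, 645 and 844 (log2FC -2.21 ± 0.38, adjusted p = 0.0226). All 3 had every rRPE library below every RPE library.

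Among the rises were those of 6 more genes. *IL1RAP*, the shared chain of IL1 family receptors, had 364, 241 and 329.7 in the RPE, 722, 165 and 504 in the t-rRPE and 2269, 4040.1 and 3580.0 in the rRPE libraries (log2FC 3.38 ± 0.50, adjusted p = 0.0117). *NINJ1*, a membrane protein of injured cells, rose from 1662, 1427 and 1087 to 5888, 4462 and 4652 (log2FC 1.85 ± 0.25, adjusted p = 0.00724). *SQSTM1*, the autophagy receptor p62, rose from 2091, 1470.4 and 931 to 3708, 4814 and 5820.2 (log2FC 1.73 ± 0.29, adjusted p = 0.0198), and *RCAN1*, an inhibitor of calcineurin, from 2327, 3067 and 2459.7 to 7719.7, 8720.4 and 11869 (log2FC 1.84 ± 0.26, adjusted p = 0.00979). *HTRA1*, a secreted serine protease, had 1912, 666 and 1151 in the RPE, 1589, 1453 and 1186 in the t-rRPE and 3276, 3767 and 3872 in the rRPE libraries (log2FC 1.67 ± 0.33, adjusted p = 0.0399). *PLIN2*, a lipid droplet protein of the Z chromosome, also rose (log2FC 2.20, adjusted p = 0.0133).

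Apart from the 4 W genes, 22 genes were more than 10-fold lower in every library without *HINTW* reads than in every library with them. Of these 22, 3 were down-regulated DEGs, and 20 carry no symbol, those 3 included. The t-rRPE libraries were split for all 22, and limma took them into its spread. The number called therefore does not give how many of the 22 differed between RPE and rRPE. *ENSGALG00000048286*, for example, had 5171, 4586 and 4501 in RPE and 0 in every rRPE library without being called (adjusted p = 0.0592). One with a symbol, *FBLN5*, an elastic fibre protein placed on an autosome, had 227, 102 and 145 in the RPE, 86.8, 0 and 0 in the t-rRPE and 0 in every library in the rRPE libraries (adjusted p = 0.0792). The other, *UBAP2*, had 1874, 1844 and 1812 in the RPE, 2798, 63.5 and 99.1 in the t-rRPE and 64, 65.8 and 63.7 in the rRPE libraries (adjusted p = 0.068). By symbol it was placed on the Z chromosome, whose genes were mostly higher in rRPE.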
